A study of Solanum tuberosum with 12 samples.

Results

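Among the predicted small RNA loci of potato, 30 carried a 24 nt mature sequence that began with a base other than A and was found at only one place in the list. The members were taken by that rule alone from the deposited list of predicted loci, which holds 324 entries with 222 distinct mature sequences. This list is not the study's final set, which leaves out sequences with fewer than 5 reads. Within the list, 159 entries and 121 distinct sequences were 24 nt long, and 98 of these sequences occurred in exactly 1 entry. The 30 members were 30.6% of those 98 (95% Wilson interval 22.4 to 40.3), and the remaining 68 began with A. Length, first base and number of entries chose the members, so none of the 3 is a finding here.

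The study sequenced small RNAs of *Solanum tuberosum* group Andigena, clone ADG573, a potato that forms tubers in short days. Plants raised in vitro spent 4 weeks in a glasshouse in long days and were then moved to cabinets at 20 °C with long days (LD) or short days (SD). The 12 libraries comprise 4 groups with 3 biological replicates in each: leaf in LD, leaf in SD, and in SD also the stolon, the underground shoot whose tip swells into the tuber, and the swollen stolon. The labels give 8 days in the cabinets for every sample, whereas the study's methods give that time for leaves and later days for stolons. All 4 groups are 1 clone without a transgene or mutation, so differences between potato genotypes are outside these data. The list pools the 12 libraries, and no column of it holds a value of a single library. Levels in leaf, stolon or swollen stolon, replicate error and the depth of each library could therefore not be obtained from it. A supplement of the study gives read numbers by tissue for predicted miRNAs, which were not used here. The reads given for a member are the whole number of reads identical to its mature sequence over all libraries, as the authors wrote it into each identifier. In such a sum, fewer cells with an RNA and less of it per cell cannot be told apart. No test was possible without replicate values, so every difference below is a description, and intervals cover counting error only.

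In plants, small RNAs of 24 nt are mostly made by the Dicer-like enzyme DCL3 from double-stranded RNA of repeats and transposons, and they guide DNA methylation at matching sequences. Some hairpin transcripts also yield 24 nt RNAs, which are then called long miRNAs, while canonical plant miRNAs of 21 nt are cut by DCL1. In Arabidopsis the 5′ base takes part in the choice of the Argonaute protein: AGO4 and AGO2 favour A, AGO1 favours U and AGO5 favours C. A mature strand is the strand of the duplex that was called as the product, and the star strand is its partner on the other arm of the hairpin. The list is written in DNA letters, so T stands for U in the RNA.

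The following sequences show the first base that set these 30 apart, with bases 2 to 8 (the seed) in capitals, so that the single small letter at the left is the 5′ base. For T the 3 members with the most reads and the one with the fewest are given.

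PotatoMir1006122626: tTTGACAAtgcacatctagacact
PotatoMir1004979244: tAGTTTTTggacgacaggggcacc
PotatoMir1005377406: tGAACAAGtagacacatacgtcct
PotatoMir1005887272: tTGAGAGCtccgtaaattctacag

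For G, the same choice gave these 4 members.

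PotatoMir1004183433: gAGATGGAatcagtgtttggacat
PotatoMir1004182473: gAGATGAGatcaatgtttggacat
PotatoMir1004113062: gAATTTTCaaatgatcgtaacttt
PotatoMir1004299562: gATTTGGTagttggtgttcttgaa

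For C there were only 2 members.

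PotatoMir1003951643: cTTCAACTttgaatgtgcacaagt
PotatoMir1003788433: cGGGCTTGcctagaacgggttacc

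Of the 30 mature strands, 23 began with T (76.7%, 59.1 to 88.2), 5 with G (16.7%, 7.34 to 33.6) and 2 with C (6.67%, 1.85 to 21.3). Among first bases other than A, T also led in other sets, so its lead was not particular to the members. The 23 distinct 24 nt sequences at several loci began with A in 13, T in 7, G in 2 and C in 1. The 59 distinct 21 nt sequences began with T in 34, A in 14, C in 8 and G in 3. In the members the T was often part of a longer run: 14 of the 30 began with TT and 9 with TTT. Such runs were also present in 24 nt sequences at several loci, where 6 of 23 began with TT and 4 with TTT. In 21 nt sequences 13 of 59 began with TT and 1 with TTT. Among the members T was also the most frequent base at position 2 (16 of 30) and position 3 (14 of 30). In the A-starting sequences T held position 2 in 26 of 68 and position 3 in 17 of 68, but this difference was not tested. The last base was T in 18 members (60.0%, 42.3 to 75.4), C in 6, A in 4 and G in 2. The A-starting sequences also ended with T most often, in 34 of 68.

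The star strand was read from the fold of each deposited precursor. Its end toward the loop was cut to leave a 3′ overhang of 2 nt, and its other end was the end of the precursor. The star strand began with T in 15 of 30 members (50%, 33.2 to 66.8), with G in 7, with A in 5 and with C in 3. In the A-starting sequences the star strand began with T in 28 of 68 (41.2%, 30.3 to 53.0), with C in 16, with G in 13 and with A in 11. A therefore began 16.7% of the members' star strands and 16.2% of the others', side by side and without a test. Among the 23 T-starting members the star strand began with T in 11, with G in 6, with A in 3 and with C in 3. The 5 G-starting members had star strands beginning with A in 2, T in 2 and G in 1, and both C-starting members had a star strand beginning with T. In 25 of the 30 duplexes neither strand began with A. The rule bars A from the mature strand, so this only restates the star strands without A.

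The first base of the star strand depended on where it was cut. For the 20 members on the 5′ arm, the fold and the assumed overhang place this base. With blunt ends (overhang 0), 11 of these 20 star strands would begin with A and 4 with T, whereas at 2 nt 4 began with A and 11 with T. At 1 nt the counts were 7 with A and 5 with T, and at 3 nt they were 3 with A and 10 with T. On the 5′ arm, mature positions 24 and 22 are opposite a blunt and a 2 nt cut. Over all 30 members, both arms together, position 24 carries T in 18 and position 22 carries A in 14. On the 3′ arm the star strand starts at the first base of the precursor, as the authors excised it, and the assumed overhang does not move it. The star strand was the same at a fold temperature of 20 °C in 30 of 30.

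**Figure D1:**
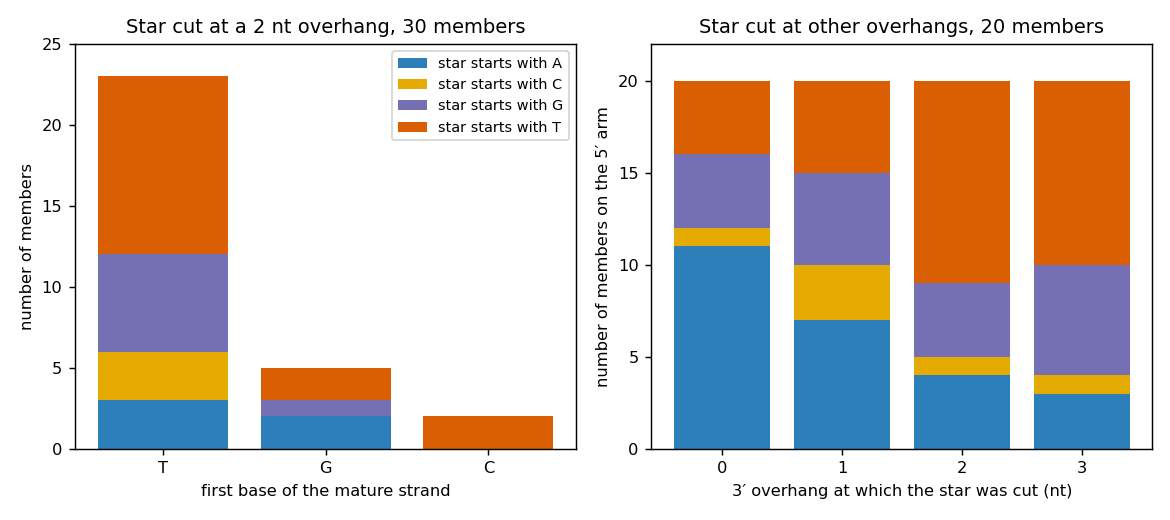
The left plot shows the number of members (y axis) by first base of the mature strand (x axis), and colours give the first base of the star strand at a 2 nt overhang: T is most frequent, in 11 of the 23 T-starting members. The right plot gives the 20 members on the 5′ arm (y axis) at assumed overhangs of 0 to 3 nt (x axis), where A falls from 11 to 3 members.

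The mature strand lay on the 5′ arm in 20 of 30 members (66.7%, 48.8 to 80.8) and on the 3′ arm in 10. In the A-starting sequences the arms were nearly even, with 35 of 68 on the 5′ arm (51.5%, 39.8 to 62.9), and the 2 intervals overlap. By first base, 17 of 23 T-starting, 2 of 5 G-starting and 1 of 2 C-starting members were on the 5′ arm. Members on the 5′ arm held 1017 of the 1159 reads of all members (87.7%). Most of that share came from few sequences, since the median was 10 reads on the 5′ arm and 12 on the 3′ arm. The 5 members with the most reads all lay on the 5′ arm.

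Precursors ran from 50 to 215 nt with a median of 115.5 nt (quartiles 73.75 and 179.25), and 17 of the 30 were over 100 nt. The A-starting sequences had precursors of 49 to 226 nt with a median of 101.5 nt, and the 21 nt entries, among them the canonical miRNAs, had a median of 79.5 nt. Without 6 members linked by shared precursor stretches, which are described with the relatives, the members' median was 98.5 nt, under that of the A-starting sequences. Members on the 5′ arm had a median precursor of 139.5 nt and those on the 3′ arm 79.5 nt. The distance between both strands, which is the loop with any stem beyond the duplex, was 3 to 168 nt with a median of 68 nt. The extremes show how different the hairpins were. PotatoMir1004182473 had the shortest precursor, 50 nt, with 4 nt between its strands, and PotatoMir1004979244 the longest, 215 nt, with 168 nt between them. The precursors below are these 2 and the members with the strongest and the weakest fold for their length, with the mature strand in capitals.

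PotatoMir1004182473 precursor: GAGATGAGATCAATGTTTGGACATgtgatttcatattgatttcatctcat
PotatoMir1004979244 precursor: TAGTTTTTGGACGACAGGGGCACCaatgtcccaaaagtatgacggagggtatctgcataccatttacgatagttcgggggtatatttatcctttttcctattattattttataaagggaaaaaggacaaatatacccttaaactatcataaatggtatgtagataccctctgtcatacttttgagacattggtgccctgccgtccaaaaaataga
PotatoMir1006104073 precursor: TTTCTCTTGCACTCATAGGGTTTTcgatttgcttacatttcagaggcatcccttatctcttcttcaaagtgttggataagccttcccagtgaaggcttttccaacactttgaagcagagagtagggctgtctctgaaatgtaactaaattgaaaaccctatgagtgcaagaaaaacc
PotatoMir1004113062 precursor: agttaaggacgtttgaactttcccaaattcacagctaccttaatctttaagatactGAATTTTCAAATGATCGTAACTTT

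PotatoMir1004182473 lies at PGSC0003DMB000000144:702522-702571 (plus strand) of the DM potato superscaffolds, and PotatoMir1004979244 at PGSC0003DMB000000125:947303-947517 (plus strand). PotatoMir1006104073 lies at PGSC0003DMB000000049:1321845-1322021 (plus strand), and PotatoMir1004113062 at PGSC0003DMB000000283:26039-26118 (plus strand). Genes, exons and introns at these places were not analysed here, since no annotation of these superscaffolds was used.

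All 30 precursors folded into a structure with a single hairpin loop. The loci were predicted as hairpins, so this is largely set by how the list was made. The minimum free energy ran from -145.1 kcal/mol in PotatoMir1004979244 to -11.1 kcal/mol in PotatoMir1005377406, with a median of -41.9 kcal/mol. Per 100 nt of precursor it ran from -68.87 in PotatoMir1006104073 to -14.13 in PotatoMir1004113062 with a median of -40.37 kcal/mol. The corresponding medians were -38.28 in the A-starting sequences, -47.77 in 24 nt entries at several loci and -44.05 in 21 nt entries. Divided also by the GC percent of the precursor, the minimum free energy index had a median of 1.29 in the members and 1.098 in the A-starting sequences. Between 58.1% and 87.4% of the bases of a precursor were paired, with a median of 76.1%.

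**Figure D2:**
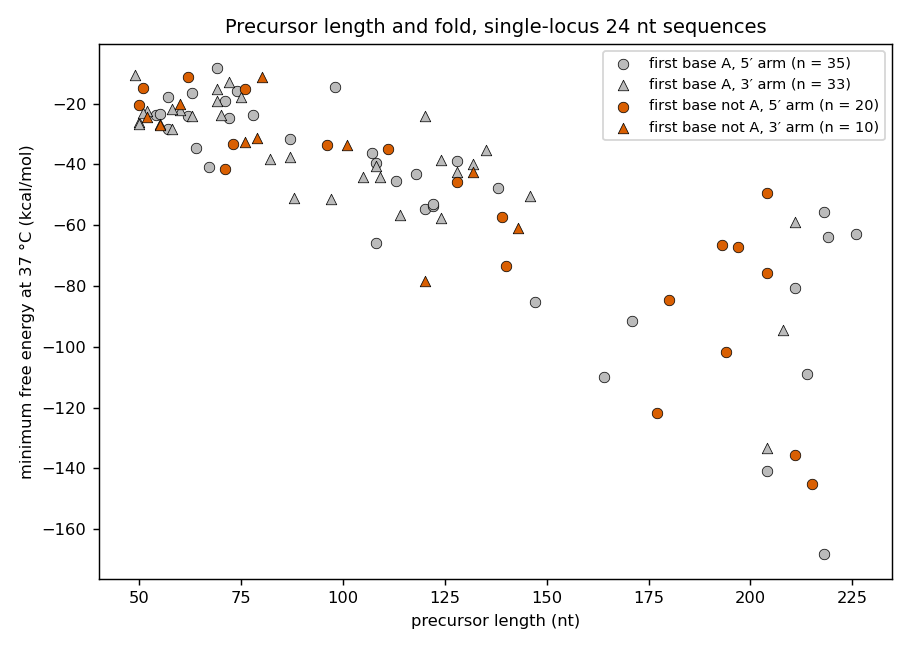
Precursor length in nt (x axis) is plotted against the minimum free energy at 37 °C in kcal/mol (y axis). Each point is 1 sequence, orange for the 30 members and grey for the 68 A-starting sequences, circles for the 5′ arm and triangles for the 3′ arm: the A-starting sequences reach further at every end (49 to 226 nt, -168.3 to -8.4 kcal/mol), and all members over 143 nt lie on the 5′ arm.

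Long uninterrupted stems were present in a minority. A helix of at least 24 bp without interruption, G:U pairs included, occurred in 6 of 30 members (20.0%). It is as long as the mature strand but need not lie on it: PotatoMir1006104073 had a helix of 27 bp and 4 unpaired mature bases. The count was 12 of 68 in the A-starting sequences, 22 of 61 in 24 nt entries at several loci and 9 of 100 in 21 nt entries. The longest uninterrupted helix was 7 bp in PotatoMir1005377406 and 35 bp in PotatoMir1004979244, with a median of 16 bp. In PotatoMir1004979244 that helix lay between the duplex and the loop, while its mature strand had 5 unpaired bases, the most of any member. At the other end PotatoMir1004183433 had none, with a helix of 27 bp and the duplex shown here, where both strands begin with G.

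PotatoMir1004183433: gAGATGGAatcagtgtttggacat
PotatoMir1004183433 star: gtccaaacactgattccatctcat

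Of the 22 mature bases outside the overhang, 0 to 5 were unpaired, with a median of 3. G:U pairs occurred in 20 of 30 duplexes (66.7%, 48.8 to 80.8) against 57 of 68 in the A-starting sequences (83.8%, 73.3 to 90.7). No asymmetric bulge was found in 20 of the 30, and star and mature strand had equal length in 22. The usual requirements for a plant miRNA duplex, no more than 4 unpaired bases and no second asymmetric bulge nor one beyond 2 nt, were met by 26 of 30 members (86.7%, 70.3 to 94.7). The A-starting sequences met them in 50 of 68 (73.5%, 62.0 to 82.6). The study filtered its predictions on criteria of this kind, which may raise the share in both sets. Whether the deposited list had already passed that filter is not known, and its part in these shares was not tested. By first base, 22 of 23 T-starting, 3 of 5 G-starting and 1 of 2 C-starting members passed. PotatoMir1004979244 failed for its unpaired bases, while PotatoMir1003788433, PotatoMir1004113062 and PotatoMir1004299562 failed with 2 bulges each. When G:U pairs were counted as mismatches, 17 of 30 passed (56.7%).

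Which strand of a duplex is loaded is known to depend partly on which 5′ end is less tightly paired. Counted over the 4 bp at each end, the members had a mean of 0.967 G:C pairs at the 5′ end of the mature strand and 1.40 at the 5′ end of the star strand. G:C pairs were fewer at the mature end in 15 members, equal in 9 and more in 6. In the A-starting sequences the means were 0.882 and 1.06, with fewer in 27, equal in 19 and more in 22. Base 1 is part of this count and was fixed by the rule, since an A cannot form a G:C pair, so the 2 sets are not comparable on it. Over the 3 bp left at each end without the outermost pair (a count chosen after seeing the data), the means were 0.733 at the mature end and 1.1 at the star end in the members, with fewer in 16, equal in 6 and more in 8. For the A-starting sequences they were 0.882 and 0.75, with fewer in 20, equal in 21 and more in 27. There the order of the ends turned. The mean at the mature end stayed at 0.882, and only the star end fell, from 1.06, when its outermost pair was left out. The first base of the mature strand was paired in 23 of 30 members, through an A:U pair in 14, a G:C pair in 7 and a G:U pair in 2.

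Between the ends of the duplex the members were well paired, and their bases were rich in A and U. The GC share of the mature strand ran from 20.8% to 62.5% with a median of 37.5%, and the A-starting sequences had the same median. PotatoMir1003788433, which begins with C, had the highest GC share in both the mature strand (62.5%) and the precursor (61.5%). The lowest GC share of the mature strand (20.8%) was that of PotatoMir1006005967 and PotatoMir1005067965, and the lines give all 3.

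PotatoMir1003788433: cGGGCTTGcctagaacgggttacc
PotatoMir1006005967: tTTAAATGagaattttggactatt
PotatoMir1005067965: tATTGGATattgaaaatgaaactt

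Precursor GC ran from 16.7% to 61.5% with a median of 31.8%. Over all 720 mature bases, 29.7% were A, 15.1% C, 21.4% G and 33.8% T. These shares include base 1, where the rule excluded A and 23 of 30 members carried T. The order of T over A is therefore partly set by the rule. The star strands held 31.0% A, 19.1% C, 16.4% G and 33.5% T, so the mature strands were richer in G and the star strands in C. Both go together, since the strands pair with each other. Along the mature strand, A was found at position 14 in 15 of 30 members, G at position 19 in 13, C at position 23 in 13 and T at position 24 in 18. Position 7 and position 15 were paired most often, in 29 of 30 members each, and positions 1 and 2 least often, in 23 of 30 each.

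**Figure D3:**
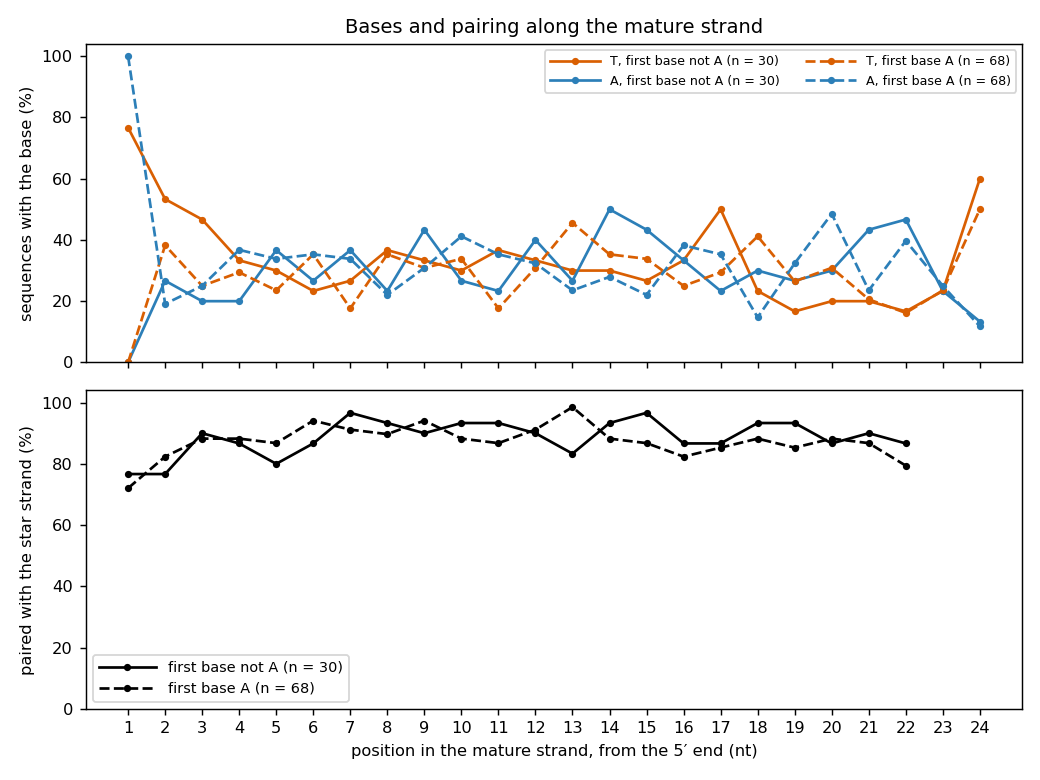
The upper plot gives the percentage of sequences (y axis) with T (orange) or A (blue) at each position of the mature strand from its 5′ end (x axis, nt), solid for the 30 members and dashed for the 68 A-starting sequences. The lower plot gives the percentage with that base paired to the star strand at positions 1 to 22, where the members lie between 76.7% and 96.7%.

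The members had few reads. Together they had 1159 reads, 0.121% of the 954147 reads of all distinct mature sequences in the list and 19.2% (18.2 to 20.2) of the 6029 reads of its 24 nt sequences. A member had 1 to 346 reads with a median of 10.5, and the A-starting sequences had 2 to 929 with a median of 14.5. PotatoMir1006122626 had 346 reads (exact 95% Poisson interval 310.5 to 384.4), PotatoMir1004979244 had 205 (177.9 to 235.1) and PotatoMir1005377406 had 130 (108.6 to 154.4). These 3, all starting with T, were the only members over 100 reads and held 58.8% of all reads of the members. Their intervals do not overlap, so their order is larger than the counting error.

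At the low end, 15 members had at most 10 reads and 8 had under 5 (26.7%, 14.2 to 44.4). The study removed predicted miRNAs with fewer than 5 reads, so these 8 fall below its own limit. PotatoMir1005887272 and PotatoMir1006104073 had a single read each, which allows 0.0253 to 5.57 reads. PotatoMir1006104073 was nevertheless the member with the strongest fold for its length, and PotatoMir1005887272 had the next longest helix after PotatoMir1004979244, 31 bp. PotatoMir1005377406, with 130 reads, had the shortest helix. T-starting members held 989 of the 1159 reads (85.3%, 83.2 to 87.3), G-starting members 105 (9.06%) and C-starting members 65 (5.61%). Most of the T share came from few sequences, since the median was 8 reads for T-starting and 18 for G-starting members. The 2 C-starting members had 42 (30.3 to 56.8) and 23 (14.6 to 34.5) reads. The G-starting members had 37, 34, 18, 11 and 5 reads.

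**Figure D4:**
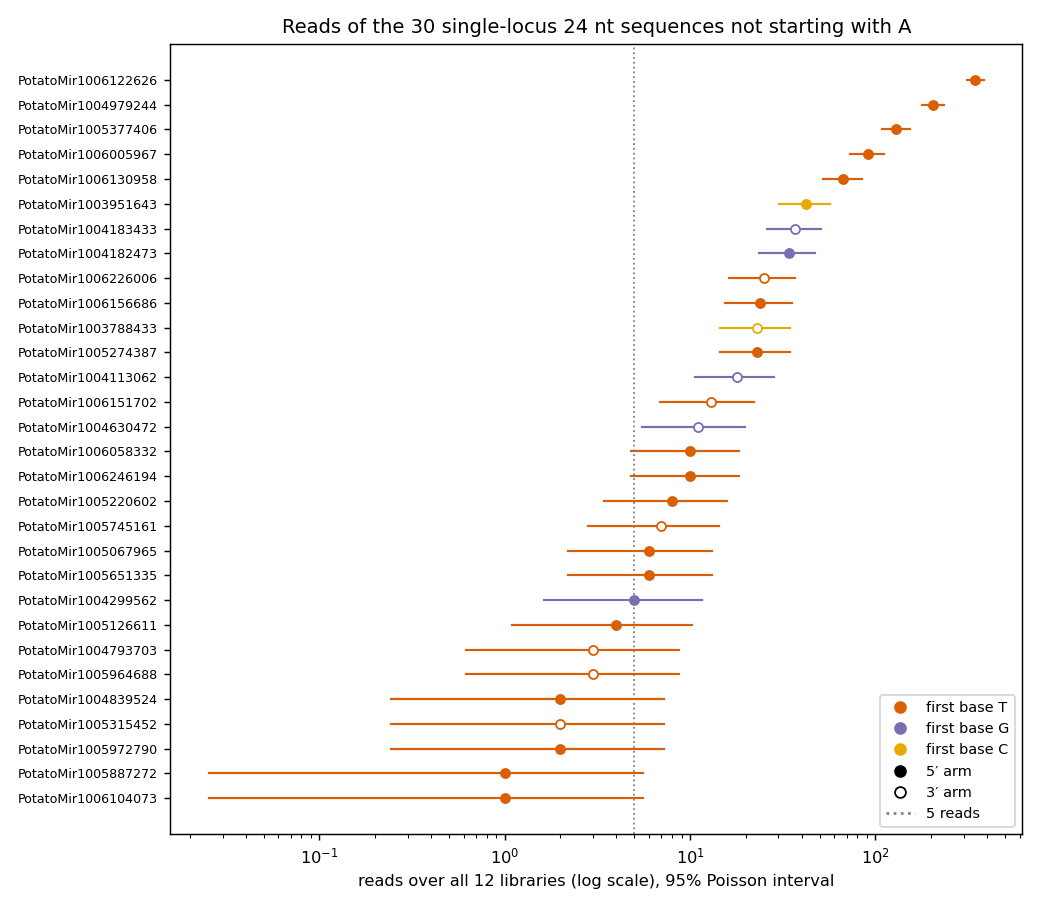
Reads over all 12 libraries (x axis, log scale) are plotted for each of the 30 members (y axis, by name), with exact 95% Poisson intervals as bars, the first base as colour, filled points for the 5′ arm and open points for the 3′ arm. The 3 members over 100 reads all start with T and lie on the 5′ arm, and below the dotted line at 5 reads all 8 members start with T.

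The 30 members lay on 30 different superscaffolds, of 197 in the list, with 16 on the plus strand. No member overlapped another entry, and 13 had another entry on the same superscaffold. The closest was 50336 nt away from PotatoMir1006226006. No star strand was the mature sequence of another entry. The 30 members had 29 different seeds, and the shared one belonged to the pair PotatoMir1003951643 and PotatoMir1006058332, which matched at 22 of 24 bases although one begins with C and the other with T.

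Several members had close relatives in the list. Compared without gaps, with shifts of up to 8 nt, an overlap of at least 16 nt and at least 85% identity (limits chosen after the values were seen), 13 of 30 members resembled another sequence of the list (43.3%). The A-starting sequences did so in 20 of 68 (29.4%), a difference that was not tested. The members named in this and the following paragraphs beyond those already given were chosen after their values were seen. The largest set of relatives held 5 members, PotatoMir1003951643, PotatoMir1006058332, PotatoMir1006130958, PotatoMir1006156686 and PotatoMir1005377406. They are shown with PotatoMir1005972790, which shares precursor stretches with them, because a common stretch can be read at shifted places in them.

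PotatoMir1003951643: cTTCAACTttgaatgtgcacaagt
PotatoMir1006058332: tTTCAACTttgagtgtgcacaagt
PotatoMir1006130958: tTTGAGTAtgcacaagtagacact
PotatoMir1006156686: tTTGGGTGtgcacaagtagatact
PotatoMir1005972790: tTGTATAAagttgaacaagtagat
PotatoMir1005377406: tGAACAAGtagacacatacgtcct
PotatoMir1005377443: tGAACAAGtagacacatgcgtcct
PotatoMir1001266088: aCAAGTAGacactcacgtcct

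The last 2 lines are not members: PotatoMir1005377443 is a 24 nt sequence at 4 loci with 537 reads, and PotatoMir1001266088 a 21 nt sequence with 24 reads. PotatoMir1005377406 differed from PotatoMir1005377443 by 1 base in 24, so its single-locus status rests on that base. PotatoMir1006130958 and PotatoMir1006156686 matched at 21 of 24 bases. The word ACAAGTAGA stood in the mature strand of 4 of 30 members, and in 7 of the 222 distinct mature sequences of the list. On either strand of the precursor it stood in 6 of 30 members and in 13 of 324 entries. The word TGTGCACAAGT, of 11 letters, was in the mature strand of PotatoMir1003951643, PotatoMir1006058332 and PotatoMir1006156686 and in no other mature sequence, and its letters TGTGCACA read the same on both strands. These words were found by searching for stretches of at least 9 letters in at least 3 members and are a description of the set.

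The 6 members were also joined by runs of at least 14 identical bases between their precursors, in the same or the opposite orientation. All 6 lay on the 5′ arm, 5 began with T, and together they had 275 reads. Their precursors measured 62 to 197 nt with a median of 186.5 nt, against 98.5 nt in the other 24 members. Without them, 14 of 24 members lay on the 5′ arm (58.3%) and 18 of 24 began with T. PotatoMir1006122626, the member with the most reads, was near this set without passing the limit: it matched PotatoMir1006130958 at 20 of 24 bases.

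Further pairs were found within the members. PotatoMir1004182473 and PotatoMir1004183433, both beginning with G and with 34 and 37 reads, matched at 21 of 24 bases, although one lay on the 5′ arm of a 50 nt precursor and the other on the 3′ arm of a 120 nt precursor. Both resembled the A-starting PotatoMir1002870907 (9 reads) at a shift of 2 nt. PotatoMir1004113062 and PotatoMir1005745161 were identical over 19 nt at a shift of 5 nt, both on the 3′ arm, and one began with G and the other with T. A shift thus changed the first base in these families, as the lines show.

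PotatoMir1004182473: gAGATGAGatcaatgtttggacat
PotatoMir1004183433: gAGATGGAatcagtgtttggacat
PotatoMir1002870907: aTGAGATGaagtcaatgtttggac
PotatoMir1004113062: gAATTTTCaaatgatcgtaacttt
PotatoMir1005745161: tTCAAATGatcgtaactttggcct
PotatoMir1006226006: tTTTGGAGaatctgacacgggtgt
PotatoMir1003398604: aTTTTTGGagaatctgacacgggt

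The last line is the A-starting PotatoMir1003398604 (43 reads), which was identical to PotatoMir1006226006 (25 reads) over 22 nt at a shift of 2 nt. PotatoMir1006226006 was the only member left out, leaving 29, when a sequence identical to another apart from a shift of up to 3 nt was no longer counted as single-locus. PotatoMir1005220602 (8 reads) matched the A-starting PotatoMir1002958837 (96 reads) at 20 of 22 bases, also at a shift of 2 nt. PotatoMir1004839524 (2 reads) matched PotatoMir1003012892, an A-starting sequence at 3 loci with 11 reads, at 17 of 18 bases, and their precursors shared a run of 115 nt.

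Over all members, 20 of 30 precursors shared a run of at least 14 nt with another precursor of the list (66.7%), and 9 of 30 a run of at least 20 nt (30%). In the A-starting sequences the counts were 36 of 68 (52.9%) and 22 of 68 (32.4%). At 14 nt the share was higher in the members and at 20 nt it was slightly lower, so no order between the sets was read from it.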

How the data were processed

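Small RNA libraries were made from total RNA of 12 potato samples. The authors trimmed the reads with Cutadapt (version 1.1 in the submitters' processing notes), discarded reads of structural RNAs (rRNA, tRNA, snRNA, snoRNA), aligned without mismatches to the DM superscaffolds with Bowtie, folded excised windows with RNAfold and predicted loci with miRDeep-P. Only sequences that match DM exactly could therefore enter, so reads of the Andigena clone that differ from DM are missing. The authors also filtered predictions on duplex criteria and removed those with fewer than 5 reads. The deposited list still holds sequences below that minimum. The deposited list gives, for each locus, the mature and precursor sequence, the position and a count of reads over all libraries, not normalized. It has 0 columns with values of single libraries, and the 12 samples were kept in their 4 labelled groups for description only. The depth of each library could not be read from it.

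Precursors were folded again with RNAfold (ViennaRNA 2.7.2) at 37 °C. The star strand was the opposite part of the hairpin. Its end toward the loop was cut to leave a 3′ overhang of 2 nt, and its other end was the end of the precursor. An unpaired base at the cut was replaced by its closest paired neighbour, up to 5 nt away. This reading was tried on simulated hairpins with a fixed short loop, few mismatches, no bulges and a built-in overhang of 2 nt. It therefore says nothing on bulges, long loops or other overhangs. Shares have 95% Wilson intervals and reads exact 95% Poisson intervals (SciPy 1.17.1). Members and comparison sets were chosen with earlier results of these data known. Sequences were named by a rule: per first base the 3 with the most reads and the one with the fewest, the extremes of precursor length, fold per 100 nt and mature GC, and members overlapping or matching another. Alternatives changed the read minimum, the strictness of single-locus, the fold temperature, the G:U rule, the overhang and the linked members. The reference table given holds gene names without sequences, and members were not matched to it.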

Additional observations from a re-analysis of the deposited data

How the results depend on the processing

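Of 56 recalculations, 48 stayed within the 95% interval of the main value (for the number of members, within 1.5 times) and 8 moved further. Among the 48 are those with 1 member per overlapping or shifted group. That setting removed none of the 30 members, so its values repeat the main ones and could not move. With at least 10 reads, 17 members were left, their median was 25 reads and 70.6% of their star strands began with T. With a 3′ overhang of 0 nt, 26.7% of the 30 star strands began with T and 40% with A, and with 1 nt 30% began with T. The overhang itself decides these values on the 5′ arm. At 20 °C the median minimum free energy per 100 nt was -55.79 kcal/mol, as folds are more stable at a lower temperature by construction. Counting G:U pairs as mismatches left 56.7% of the members within the duplex criteria. The order of T and A on the star strand therefore turned at 0 nt. It held at 1 nt over all members (26.7% A), but among the 20 members on the 5′ arm A led there as well, with 7 against 5. Leaving out the 6 linked members (chosen after seeing the data) took the median precursor from 115.5 to 98.5 nt, from above to below the 101.5 nt of the A-starting sequences. No paired analysis was possible because the list pools all libraries, and leaving out a replicate could not be done for the same reason. The 8 members under 5 reads carry intervals that reach from near 0 to 10.2 reads at most, which is the limit that depth sets on their order.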
